A study of Mus musculus with 20 samples.

Results

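Interferon gamma is the cytokine that T cells and natural killer cells release on activation, and the 33 genes described here are ones it is known to induce, together with the receptor and kinases that carry its signal. They were chosen by symbol as 33 of the 54309 genes of the count table: 10 guanylate-binding proteins (Gbp2 to Gbp11), 10 immunity-related GTPases and relatives (Igtp, Irgm1, Irgm2, Iigp1, Tgtp1, Tgtp2, Ifi47, Gm4951, Gm12185 and F830016B08Rik), 6 enzymes, serpins and ubiquitin-like effectors (Ido1, Upp1, Serpina3f, Serpina3g, Gch1 and Ubd), 2 transcription factors and a signalling inhibitor (Irf1, Batf2 and Socs1), and the receptor chains Ifngr1 and Ifngr2 with the kinases Jak1 and Jak2. All 33 passed the filter on low counts. They were chosen by name, with earlier results of these data known.

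The libraries are bulk RNA-seq of subcutaneous tumors of SCCVII, a murine squamous carcinoma line, in immunocompetent C3H/HeOuJ mice. The 10 groups of 2 libraries, lettered A and B, were control; APG-157, a botanical drug that contains curcumin and was given in the food; the antibodies anti-PD-1 and anti-CTLA-4, which block T cell checkpoints and were injected intraperitoneally; APG-157 + anti-CTLA-4, here the combination; APG-157 + anti-PD-1; anti-PD-1 + anti-CTLA-4, here the double antibody group; APG-157 with both of these antibodies, here the 3-agent group; anti-CD8, an antibody that depletes CD8 T cells; and anti-CD8 added to the combination, here the depleted combination. The labels do not state whether the 2 libraries of each group are from different mice, so the spread between them may be partly technical. In group comparisons, the p-values of the main edgeR fit measure this spread as pooled over all 10 groups, not over only the groups compared. The labels give no ages for the mice and do not say whether the control group received saline or an antibody. The paper describes CD8 depletion as a mouse experiment with control and combination groups of its own. Which experiment each library came from is not in the labels.

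The binding of interferon gamma to its receptor activates the kinases Jak1 and Jak2. The signal reaches genes through gamma-activated sites (GAS) in promoters, and the induced factor Irf1 binds interferon-stimulated response elements (ISRE) in a further set of genes. The guanylate-binding proteins and immunity-related GTPases attack the vacuoles in which intracellular microbes live, Ido1 degrades tryptophan, and Socs1 restrains the kinases.

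Library totals were 43.9 to 72.1 in units of 1000000 counts, and levels below are counts per 1000000 (CPM) after TMM scaling. The labels call the material head and neck cancer cells, yet the summed level of 7 squamous epithelium genes was only 2.79 to 20.4 CPM in 19 libraries and 444.6 CPM in library B of the depleted combination, a library whose adipocyte genes summed to 2675 CPM against 17.1 to 107 CPM elsewhere. Krt5, a basal keratinocyte keratin, was at 0 in 16 of the libraries. Ptprc, the pan-leukocyte gene, was present in every library at 78.9 to 272 CPM. In bulk tumor RNA, fewer cells of a type and less RNA per cell cannot be told apart. Within groups, the biological coefficient of variation of the 2 libraries was 4.23% in the combination and 20.9% to 68.3% in the other 9 groups. The counts of the 2 combination libraries differed by more than sampling noise, and they were kept as 2 samples and, as an alternative, summed to 1, since the labels do not say that they are from separate tumors. The paper states that 1 small resected tumor of this group could be used for flow cytometry and immunohistochemistry. It does not say which tumors were sequenced.

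The start of a gene is where GAS and ISRE lie, and the sequences before the starts of 4 members are shown because these members span the patterns described further on. They come from RefSeq on GRCm38.p6 (the counts were made on GRCm39), each with the 250 bases before the annotated start, 5′ to 3′ on the gene's strand. Capitals mark GAS, searched as TTCNNNGAA, and ISRE, searched as GAAANNGAAA, on both strands. Gbp2 lies at chr3:142620413-142620662, Igtp at chr11:58199306-58199555, Irf1 at chr11:53769764-53770013 (the first of its 2 annotated starts) and Ifngr1 at chr10:19591699-19591948, all on the plus strand.
Gbp2: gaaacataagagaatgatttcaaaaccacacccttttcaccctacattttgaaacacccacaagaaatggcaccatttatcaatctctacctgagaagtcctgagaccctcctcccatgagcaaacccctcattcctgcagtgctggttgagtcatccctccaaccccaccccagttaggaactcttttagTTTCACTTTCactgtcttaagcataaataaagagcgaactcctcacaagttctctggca
Igtp: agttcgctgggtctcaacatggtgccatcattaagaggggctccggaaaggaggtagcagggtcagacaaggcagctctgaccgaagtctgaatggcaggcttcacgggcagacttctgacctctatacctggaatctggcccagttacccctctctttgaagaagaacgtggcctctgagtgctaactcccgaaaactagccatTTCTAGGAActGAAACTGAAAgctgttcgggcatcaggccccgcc
Irf1: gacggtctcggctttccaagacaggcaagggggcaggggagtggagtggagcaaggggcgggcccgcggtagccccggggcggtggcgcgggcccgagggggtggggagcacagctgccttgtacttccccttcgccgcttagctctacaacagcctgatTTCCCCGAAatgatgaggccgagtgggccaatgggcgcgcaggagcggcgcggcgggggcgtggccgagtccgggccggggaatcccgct
Ifngr1: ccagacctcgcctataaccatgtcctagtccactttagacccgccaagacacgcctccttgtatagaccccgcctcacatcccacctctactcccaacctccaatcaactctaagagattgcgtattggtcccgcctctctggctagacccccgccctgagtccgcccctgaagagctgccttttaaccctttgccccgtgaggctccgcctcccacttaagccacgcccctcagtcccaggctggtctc
The Gbp2 window holds 1 ISRE on its reverse strand, Igtp holds a GAS followed directly downstream by an ISRE, Irf1 holds 1 GAS, and Ifngr1 holds neither pattern.

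Of the 33 members, 22 had an entry in the promoter table. The 11 without one were Gbp4, Gbp6, Gbp8, Gbp9, Gbp10, Gbp11, Iigp1, Gm4951, F830016B08Rik, Ido1 and Batf2. A GAS was found in 10 of the 22 (45.5%), against 8.13% of the 27025 genes in the table. An ISRE was found in 11 of the 22 (50%), against 3.46% of all genes. The 11 GTPases with an entry carried most of them: 10 held an ISRE (90.9%) and 7 held a GAS (63.6%). Tgtp1, Tgtp2, Gm12185, Igtp and Irgm2 each had 1 of both, and they lie with Irgm1 and Ifi47 on chromosome 11, while Gbp2, Gbp3, Gbp5 and Gbp7 neighbour each other on chromosome 3. The windows of Gm12185 and Tgtp2, and those of Igtp and Irgm2, share long stretches of sequence, so these matches are not independent. Among the other 11 members, Irf1, Serpina3f and Serpina3g held a GAS and Socs1 held 2 ISRE. No match was found in the windows of Ifi47, Upp1, Gch1, Ubd, Ifngr1, Ifngr2, Jak1 or Jak2. A match is a description of letters, not a measured binding site.

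The cytokine itself was expressed at a low level. Ifng was 0.557 and 0.428 CPM in control A and B (31 and 22 counts). It was 0.394 and 0.101 CPM in APG-157, 0.613 and 1.19 in anti-PD-1, and 2.89 and 0.650 in APG-157 + anti-PD-1. With anti-CTLA-4 it was 6.05 CPM in library A and 0.142 in library B, a wide split within 1 group. Ifng was 3.46 and 2.87 CPM in the combination, 4.08 and 11.4 in the double antibody group and 9.08 and 0.582 in the 3-agent group. With anti-CD8 it was 0.0179 and 0.175 CPM (1 and 13 counts), and in the depleted combination it was 0.333 and 0.804 CPM. Each of the 4 undepleted groups with anti-CTLA-4 thus held a library with high Ifng, but 2 of these groups also held a low one. Library A of APG-157 + anti-PD-1, which had no anti-CTLA-4, was at 2.89 CPM, next to library B of the combination at 2.87. Cd8a, a chain of the CD8 co-receptor, had its lowest levels, 0.121 to 0.381 CPM, in the 4 anti-CD8 libraries, and its highest, 56.7 CPM, in library B of the double antibody group.

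**Figure D1:**
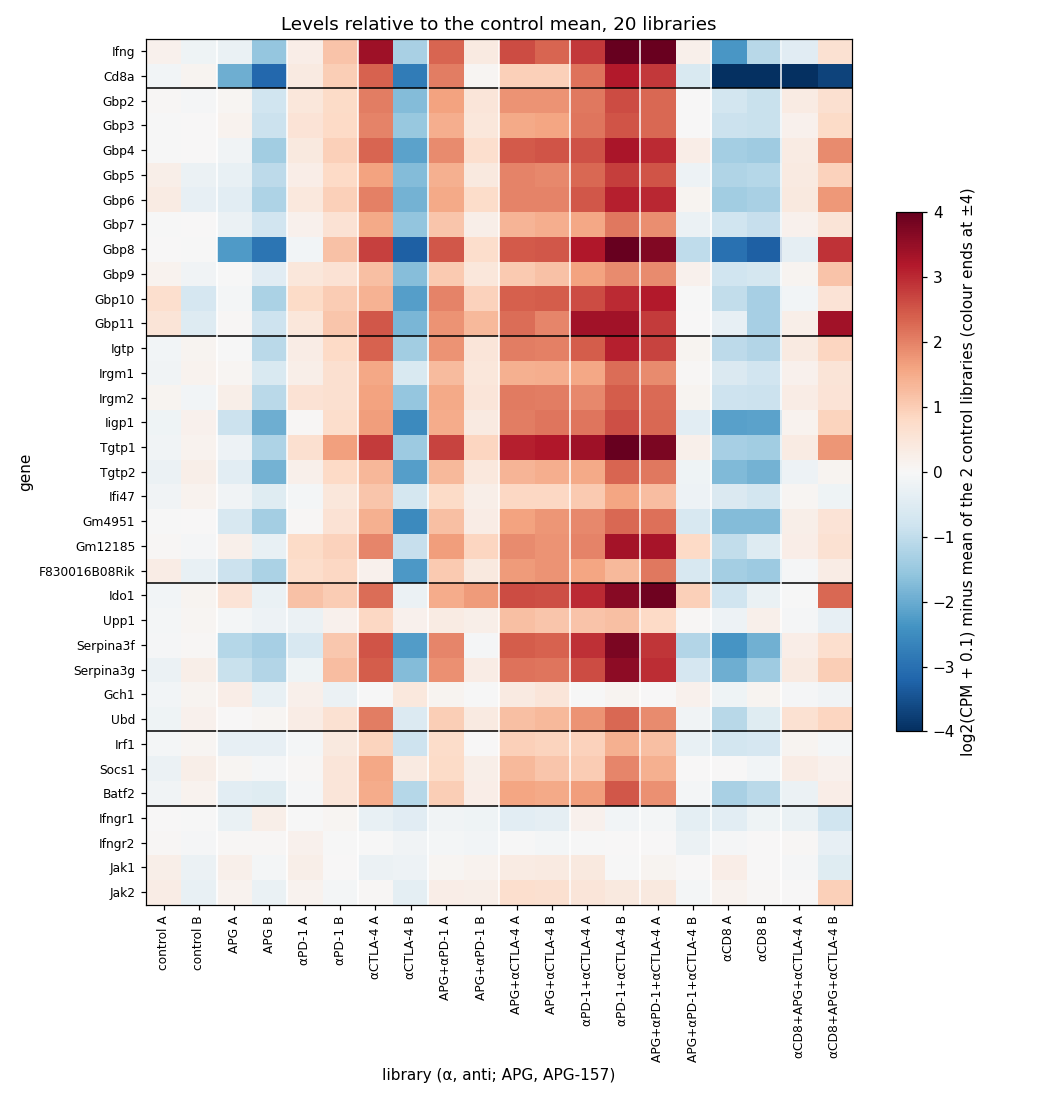
Heatmap of Ifng, Cd8a and the 33 members (rows, ordered by role) in the 20 libraries (columns, A and B of each group). Colour is log2(CPM + 0.1) minus the mean of the 2 control libraries, with the scale ending at -4 and 4. The GTPase rows change together along the columns, while Ifngr1, Ifngr2, Jak1 and Gch1 stay near the control level.

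Among the guanylate-binding proteins, Gbp2 is a widely used readout of interferon gamma. It was 109.5 and 101.3 CPM in control, 112.1 and 60.8 in APG-157, 143.6 and 179.8 in anti-PD-1, and 321.1 and 147.5 in APG-157 + anti-PD-1. With anti-CTLA-4 its libraries stood at 438 and 31.6 CPM, the second being the lowest of all 20. With the combination it was 362.7 and 365.8 CPM, in the double antibody group 453.4 and 638.5 CPM, and with all 3 agents 520.3 and 107.5 CPM. It was 63.4 and 56.5 CPM with anti-CD8 and 133.4 and 165.7 CPM in the depleted combination. Both libraries of the combination, of the double antibody group, of APG-157 + anti-PD-1, of anti-PD-1 and of the depleted combination were above both controls, and both anti-CD8 libraries were below them. Gbp8 had the widest range of the family, from 1.06 CPM in anti-CD8 B to 178 CPM in library B of the double antibody group, a ratio of 168. Gbp9 had the narrowest, 16.6 to 204 CPM, a ratio of 12.3.

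Igtp, which encodes Irgm3, was 58.6 and 66.7 CPM in control, 61.8 and 29.5 in APG-157, 76.1 and 109 in anti-PD-1, and 217.6 and 88.2 in APG-157 + anti-PD-1. It stood at 318.2 and 23.8 CPM with anti-CTLA-4, at 257.7 and 253.6 in the combination, at 334.2 and 542 in the double antibody group, and at 409.6 and 67.3 with all 3 agents. With anti-CD8 it was 30.4 and 27.6 CPM and in the depleted combination 80.6 and 113.9 CPM. The anti-CD8 libraries therefore lay below both controls and those of the depleted combination above them. Ifi47 had the narrowest range of this family, 70.1 to 348.5 CPM (ratio 4.97), and Tgtp1 the widest, 2.27 to 116.3 CPM (ratio 51.2).

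Some of these genes share much of their sequence, so the split of reads between them is uncertain. Of the 31-base words of Tgtp1 transcripts, 83.2% also occurred in Tgtp2, and 80.8% of those of Gbp10 occurred in Gbp6. The levels of Tgtp1 and Tgtp2 added up to 54.5 and 73.3 CPM in control and to 229.9 and 401.2 CPM in the double antibody group. Gbp6 itself shared 67.8% with Gm43302, an annotated gene outside the 33.

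The 20 GTPases moved as 1 block. Over the 20 libraries, Pearson's r of log2(CPM + 0.1) between pairs of them was 0.838 to 0.996 with a median of 0.964 (190 pairs, which share libraries, depth and in part reads). Computed on the 10 differences between A and B within groups, the median was 0.959. The mean log2 level of the 20 was highest in library B of the double antibody group (7.18) and lowest in anti-CTLA-4 B (2.69), which share an antibody.

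Among the effectors, Ido1 was expressed at low levels throughout. It was 0.0898 and 0.117 CPM in control (5 and 6 counts), 0.197 and 0.0675 in APG-157, 0.356 and 0.311 in anti-PD-1, and 0.463 and 0.560 in APG-157 + anti-PD-1. The level was 0.861 and 0.0711 CPM with anti-CTLA-4, 1.13 and 1.11 in the combination, 1.51 and 2.41 in the double antibody group (64 and 139 counts), and 2.89 and 0.291 with all 3 agents. It was 0.0179 and 0.0672 CPM with anti-CD8 (1 and 5 counts) and 0.101 and 0.888 CPM in the depleted combination. The 2 libraries with the highest Ido1 were also the 2 with the highest Ifng. Upp1, uridine phosphorylase, was more abundant, at 28.9 and 32.2 CPM in control, 70.1 and 66.3 in the combination, 67.4 and 69.9 in the double antibody group, and 29.4 and 24.5 in the depleted combination. Its anti-CTLA-4 libraries differed more, at 54.7 and 34.1 CPM, and were both above both controls. Serpina3f and Serpina3g, protease inhibitors, ranged from 0.431 to 36.6 CPM and from 2.64 to 127.4 CPM. Ubd, the ubiquitin-like FAT10, ranged from 4.72 to 50.5 CPM. Gch1, the first enzyme of tetrahydrobiopterin synthesis, stayed between 7.36 and 12.5 CPM.

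Irf1 and Socs1 had narrower ranges than each of the 20 GTPases. Irf1 was 137.7 and 153.4 CPM in control, 115.8 and 115.8 in APG-157, 138.8 and 190.7 in anti-PD-1, and 240.6 and 146.6 in APG-157 + anti-PD-1. The level was 271.8 and 82.3 CPM with anti-CTLA-4, 280.5 and 269.6 in the combination, 272.7 and 386.2 in the double antibody group, and 334.5 and 119.4 with all 3 agents. With anti-CD8 it was 86.4 and 91.5 CPM, below both controls, and in the depleted combination 157.5 and 136.3 CPM, which overlapped them. Over all libraries the highest Irf1 level was 4.69 times the lowest, as it was for Socs1 (5.62 to 26.4 CPM), while Batf2, a basic leucine zipper factor, had a ratio of 14.3. The receptor chains and kinases also had narrower ranges than each of the 20 GTPases. The highest library over the lowest was 2.03 for Ifngr1, 1.41 for Ifngr2, 1.82 for Jak1 and 2.55 for Jak2, against 2.86 for Upp1. Ifngr1 was 122.9 and 122.8 CPM in control, 101.1 and 144.6 in APG-157, 122.5 and 129.9 in anti-PD-1, and 111.2 and 108.3 in APG-157 + anti-PD-1. The level was 99.4 and 89.6 CPM with anti-CTLA-4, 92.3 and 94.9 in the combination, 139.3 and 114.6 in the double antibody group, 116.8 and 94.1 with all 3 agents, 91.1 and 109.6 with anti-CD8, and 101.5 and 71.3 in the depleted combination. The gene for the ligand-binding chain of the receptor was therefore present at similar levels in libraries with the lowest and the highest GTPases.

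The question of how the members relate to Ifng and CD8 was answered per library. In edgeR's quasi-likelihood model, the log2 level of each gene was fitted against log2(Ifng CPM + 0.1) over the 20 libraries, so that a slope of 1 means that the gene doubles where Ifng + 0.1 doubles. Of the 33 members, 28 rose with Ifng at an adjusted p under 0.05 and none fell, against a background of 6.12% of the 19566 genes tested. The median slope of the members was 0.59 and that of all genes 0.00 (to 2 decimals). All 20 GTPases were among the 28. Gbp8 had the steepest slope, 1.14 (SE 0.147), followed by Serpina3f at 0.97 (SE 0.0687) and Tgtp1 at 0.96 (SE 0.0578). Gbp2 rose by 0.59 (SE 0.0386, edgeR adjusted p = 6.36e-10) and Igtp by 0.70 (SE 0.0353, edgeR adjusted p = 3.76e-11). Ido1 had a slope of 0.92 (SE 0.0989), Batf2 0.56, Ubd 0.46, Irf1 0.34, Socs1 0.30 and Upp1 0.23. Among the GTPases, Ifi47 had the shallowest slope and the narrowest range. The 5 members that did not pass were Ifngr1 at 0.01 (SE 0.0290), Ifngr2 at 0.00 (SE 0.0142), Jak1 at 0.02 (SE 0.0265), Gch1 at 0.02 (SE 0.0265) and Jak2 at 0.09 (SE 0.0359, edgeR adjusted p = 0.15).

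**Figure D2:**
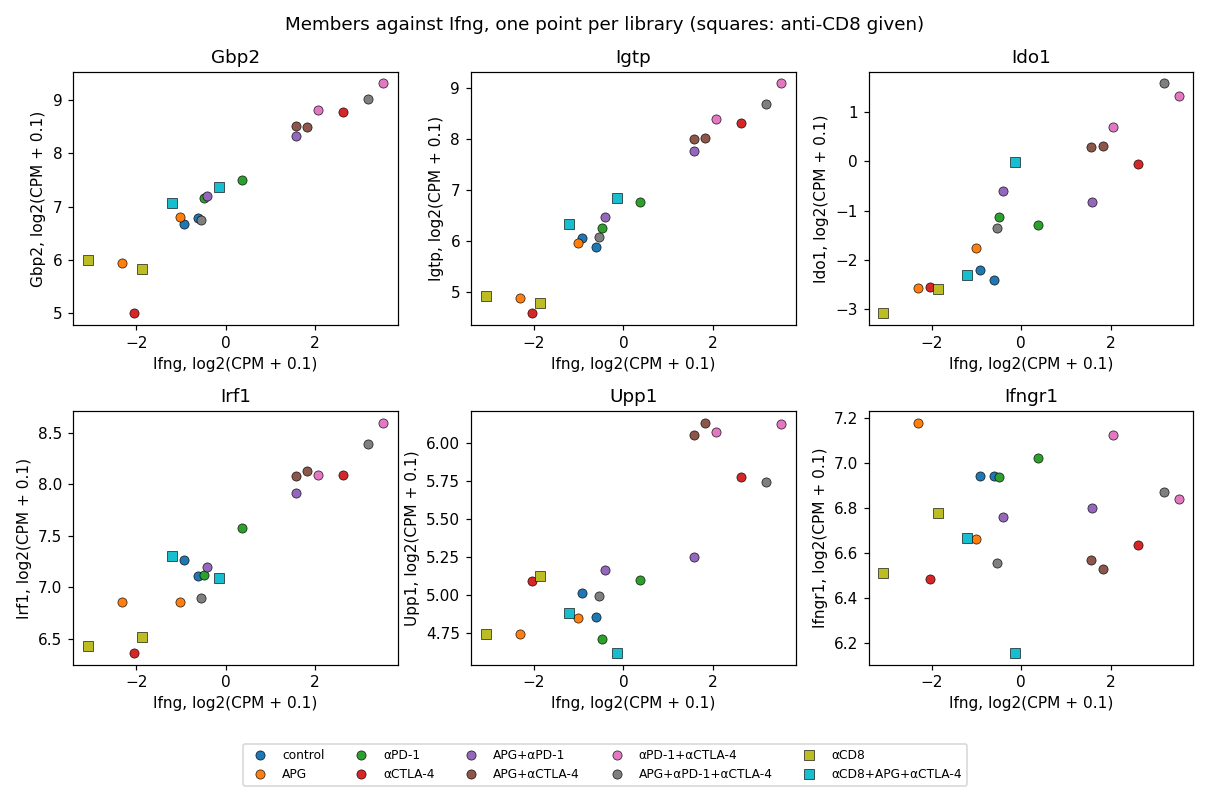
Levels of Gbp2, Igtp, Ido1, Irf1, Upp1 and Ifngr1 (CPM, log axis) against Ifng (CPM, log axis) in the 20 libraries; squares are the anti-CD8 libraries. Gbp2, Igtp, Ido1 and Irf1 climb with Ifng along a narrow band, Upp1 climbs less, and Ifngr1 lies flat between 71.3 and 144.6 CPM.

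The groups share treatments, so the slope was also fitted with a term for each group, which leaves only the differences between the A and B libraries of each group. Again 28 of 33 members had a positive slope that passed, with all 20 GTPases, against 2.18% of genes, and the median slope was 0.61. Gbp2 had a slope of 0.65 (SE 0.0668), Igtp 0.70 (SE 0.0597) and Ido1 0.76 (SE 0.162, edgeR adjusted p = 0.0295). Libraries that carry the same treatment label thus differed in their GTPases along with their Ifng. The within-group differences that carried most weight were those of anti-CTLA-4 and of the 3 agents together, where Ifng differed between A and B by 4.67 and 3.75 on the log2 scale and Gbp2 by 3.79 and 2.27. These libraries also differed in 6 skeletal muscle genes, which summed to 3.59 and 1367 CPM in anti-CTLA-4 A and B and to 3847 and 0.679 CPM in A and B of the 3-agent group. Muscle was on the side of low Ifng in the former pair and of high Ifng in the latter. No muscle gene passed with Ifng within groups, but the SEs of these slopes, 1.61 to 2.27, are too wide to decide. The part of muscle in the members' slopes was not tested.

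Pearson's r with Ifng over the 20 libraries passed a two-sided permutation test for 28 members (background 6.21%), and Spearman's rho for 29 (background 6.93%), with 100000 permutations and adjustment over 19566 genes. The highest r were those of Irgm1 (0.978), Igtp (0.977) and Batf2 (0.975), each with a permutation p of 1e-05, the smallest that these permutations can give. The lowest were Ifngr2 (0.0742), Ifngr1 (0.101) and Jak1 (0.156). Without library B of the double antibody group and library A of the 3-agent group, the 2 libraries farthest from the median of Ifng, 28 members still passed on r (background 3.38%). Within the A libraries alone 25 members passed (3.35%) and within the B libraries 23 (0.951%). Spearman's rho passed for only 1 member within the B libraries (0.0767%) and for 0 over the 10 within-group differences (0%). The widest empty stretch of Ifng along its log2 axis was 18.2% of its range, with 13 libraries below it and 7 above. In a split there, added after seeing the data, 5 members passed on r below it (background 0.169%) and 0 above it (0%). The median r of the members was 0.837 below it and 0.831 above it. With 7 libraries a permutation p cannot get small, so the 0 above it does not show that the relation was absent. Whether the libraries form clusters was not tested.

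Against Cd8a the relation was similar but depended on the depleted libraries. Over 20 libraries 26 of 33 members rose with Cd8a (background 4.88%), with a median slope of 0.36. Gbp2 had a slope of 0.36 (SE 0.0561). Gbp8 (edgeR adjusted p = 0.0740) and Gbp11 (edgeR adjusted p = 0.225) did not pass. Within groups the count was again 26 (background 2.14%), now with all 20 GTPases, a median slope of 0.62, and Gbp2 at 0.69 (SE 0.0298). Ido1 (edgeR adjusted p = 0.0743) and Upp1 (just over the threshold) did not pass there. In a fit chosen after seeing the data, on the 16 libraries without anti-CD8, 28 members rose with Cd8a (background 6.46%), with a median slope of 0.59, and 29 with Ifng (background 6.98%). Pearson's r with Cd8a over 20 libraries passed for 28 members (background 4.5%), with a median of 0.816 against 0.946 for Ifng. Within the A libraries r with Cd8a passed for 7 members (0.741%) and within the B libraries for 0 (0%). Whether the correlations with Ifng and Cd8a differ was not tested. Over the 20 libraries 4 of 6 squamous genes, among them Krt5 at -1.77 (SE 0.239), and 4 of 5 adipocyte genes fell with Cd8a. None of them passed within groups. Library B of the depleted combination had 18 counts of Cd8a. Its squamous genes summed to 444.6 CPM and its adipocyte genes to 2675 CPM, against at most 20.4 and 107 CPM elsewhere. The part of this library in these slopes was not tested. Ifng and Cd8a rose together themselves, with a slope of Ifng on Cd8a of 0.70 (SE 0.0932), and Cd8b1, the other CD8 chain, had a slope of 1.00 on Ifng (SE 0.118), so these fits do not separate them.

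**Figure D3:**
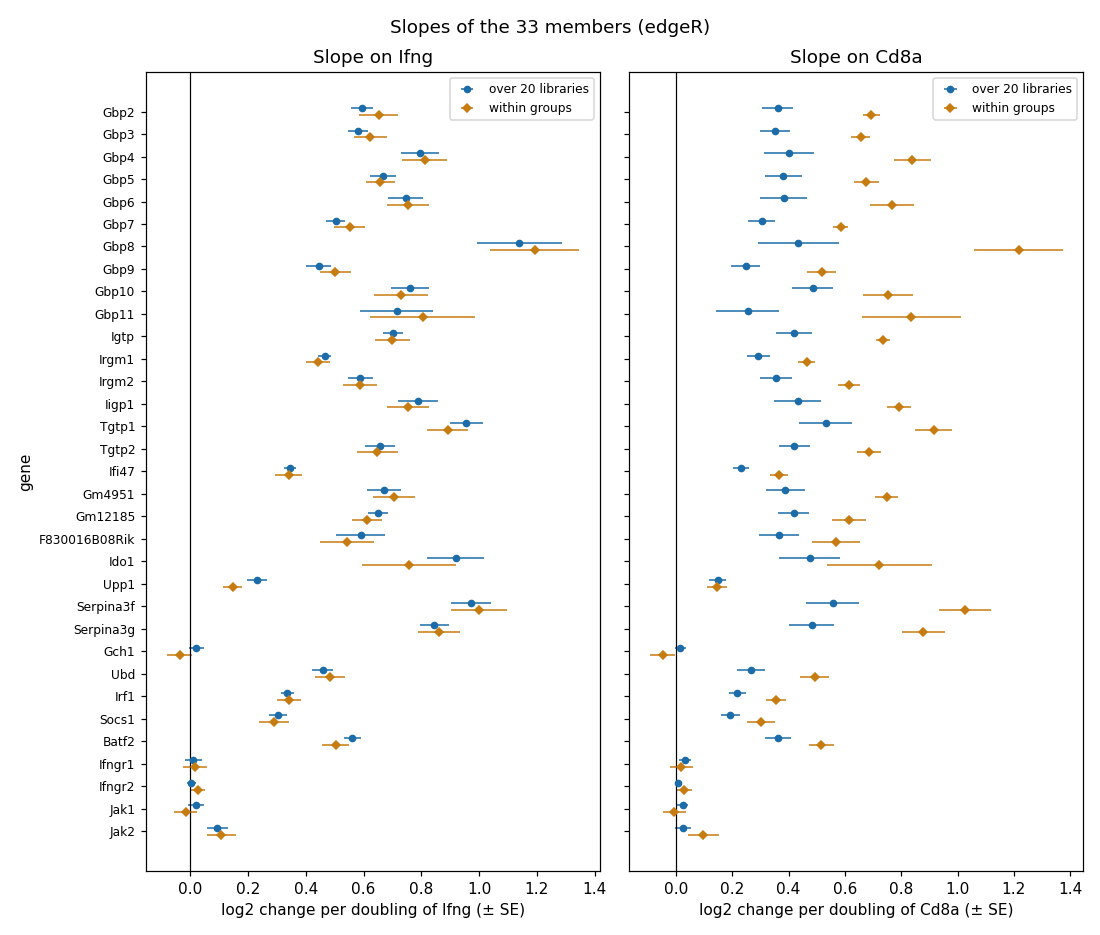
Slope of each member (rows, ordered by role) on Ifng and on Cd8a, in log2 units of the gene per log2 unit of the marker, with bars of 1 SE; circles are fits over the 20 libraries and diamonds fits within groups. On Ifng the circles and diamonds nearly coincide for the GTPases, on Cd8a the diamonds lie to the right, and Ifngr1, Ifngr2, Jak1 and Gch1 lie on 0 in both.

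Other genes of the pathway were taken from a list. Of 20 pathway genes outside the 33, 18 rose with Ifng, with a median slope of 0.40. Il18bp, a decoy for interleukin 18, had a slope of 0.75 and the peptide transporter Tap1 0.43, while the phosphatase gene Ptpn1 and the signalling inhibitor gene Pias1 did not pass. Of 14 genes typical of type I interferon, 10 rose with Ifng, with a lower median slope of 0.18, among them Rtp4 (0.29), Ifi44 (0.27) and Isg15 (0.18). Within groups 2 of these 14 passed, against 14 of the 20 pathway genes. Markers of other cell types moved with Ifng as well: 7 of 7 T cell genes rose (median slope 0.77), among them Cd3g at 0.85, Lck at 0.58 and Cd3e at 0.86. So did 4 of 5 natural killer cell genes (median slope 0.37), with Klrk1, the NKG2D receptor, steepest at 0.73. Ncr1 did not pass (0.18, edgeR adjusted p = 0.0572), and within groups 2 of these 5 passed. The summed T cell genes ranged from 9.33 to 229.2 CPM. Of 6 macrophage genes 2 rose (C1qa and C1qb, median of the list 0.06), Ptprc rose by 0.20 (SE 0.0373), and none of the squamous, muscle or adipocyte genes passed with Ifng. The part of cell composition in the members' slopes was not tested.

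Each treatment was then compared with control, to ask which raised the members as a group. The 9 comparisons share the same 2 control libraries, so they are not independent of each other. In the main fit the spread of each gene is pooled over all 10 groups, so spread within other groups enters each p-value. No member was called in any of them by edgeR at an adjusted p under 0.05, where the background was 0% of 19567 genes for higher and 0.0204% (4 genes) for lower in the combination, 0.0102% (2 genes) in the depleted combination and 0% in the others. DESeq2 called 1 member, Upp1, higher in the combination (background 0.874%) and in the double antibody group (0.353%), and none in the other 7. At an unadjusted p under 0.05, edgeR gave 24 members higher in the double antibody group (background 4.22%), 11 in the combination (5.71%), 3 with all 3 agents (2.23%), 2 with anti-CTLA-4 (3.54%), and 1 lower in the depleted combination (5.76%). It gave 0 in the other 4, where the background was 0.302% higher and 0.46% lower in APG-157, 0.353% and 0.266% in anti-PD-1, 1.19% and 1.25% in APG-157 + anti-PD-1, and 0.322% and 0.869% in anti-CD8. Fitted to only the 2 groups compared, edgeR called 26 members higher in the combination (2.26% of the genes in that fit), 25 in the double antibody group (1.74%) and 5 lower in anti-CD8 (0.088%, Gbp4, Gbp8, Gm4951, Iigp1 and Tgtp2).

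The sizes of the differences varied widely between groups. The median log2 difference of the members from control was 2.15 in the double antibody group, 1.69 in the combination, 1.40 with all 3 agents, 0.92 in APG-157 + anti-PD-1, 0.74 in anti-CTLA-4 and 0.51 in anti-PD-1. It was 0.47 in the depleted combination, -0.33 in APG-157 and -0.86 in anti-CD8, while the median of all genes lay between -0.04 and 0.03 in these 9 comparisons. All 20 GTPases had a positive difference in the combination, the double antibody group, the 3-agent group, anti-PD-1 and APG-157 + anti-PD-1, and all 20 a negative one in APG-157 and in anti-CD8. Ido1 had the highest difference in 7 of the 9, with 4.22 (SE 1.31, edgeR adjusted p = 0.730) in the double antibody group and 3.42 (SE 1.27, edgeR adjusted p = 0.39) in the combination. Upp1 differed by 1.16 (SE 0.251, edgeR adjusted p = 0.170) in the combination and by 1.17 (SE 0.251, edgeR adjusted p = 0.608) in the double antibody group. Gbp2 differed by 1.79 (SE 0.909) and 2.37 (SE 0.928) in the same groups. Ido1 also stood highest with all 3 agents, at 3.92 (SE 1.29, edgeR adjusted p = 0.941), and with APG-157 + anti-PD-1 (2.29), anti-CTLA-4 (2.15), anti-PD-1 (1.67) and APG-157 (0.35). Ifngr1 was the lowest member in 4 groups, at -0.39 in the combination, -0.16 in APG-157 + anti-PD-1, -0.22 with all 3 agents and -0.51 in the depleted combination. The lowest in the others were Gbp8 in APG-157 (-2.62) and in anti-CD8 (-3.22, SE 1.73), Upp1 in anti-PD-1 (-0.02), F830016B08Rik in anti-CTLA-4 (-0.67) and Ifngr2 in the double antibody group (0.00). The highest were Jak1 in anti-CD8 (0.13) and Gbp11 in the depleted combination (2.52, SE 1.28).

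Several of these medians rest on a single library. Without library A the median of anti-CTLA-4 was -1.57 and without library B 1.52. With all 3 agents the median was -0.06 without A and 2.23 without B. The median of APG-157 + anti-PD-1 was 0.38 without A, that of anti-PD-1 0.22 without B, that of the depleted combination 0.16 without B, and that of APG-157 -0.75 without A and -0.13 without B. Those of the combination, the double antibody group and anti-CD8 moved by less than 1.5 times when any 1 library was left out, which for the combination says little, since its libraries hardly differed.

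Whether the libraries of 2 groups overlapped was also counted, without a model. In the combination, 31 members had both libraries above both controls (background 28.8%), in the double antibody group 29 (18.8%), in APG-157 + anti-PD-1 25 (11.2%) and in anti-PD-1 17 (13.7%). With anti-CTLA-4 alone only 2 members, Socs1 and Upp1, were separated upward (18.2%) and with all 3 agents 7 (13.9%). In anti-CD8, 26 members had both libraries below both controls (19.1%), and in APG-157 15 did (13.2%). In the depleted combination 15 lay above both controls (18.3%).

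**Figure D4:**
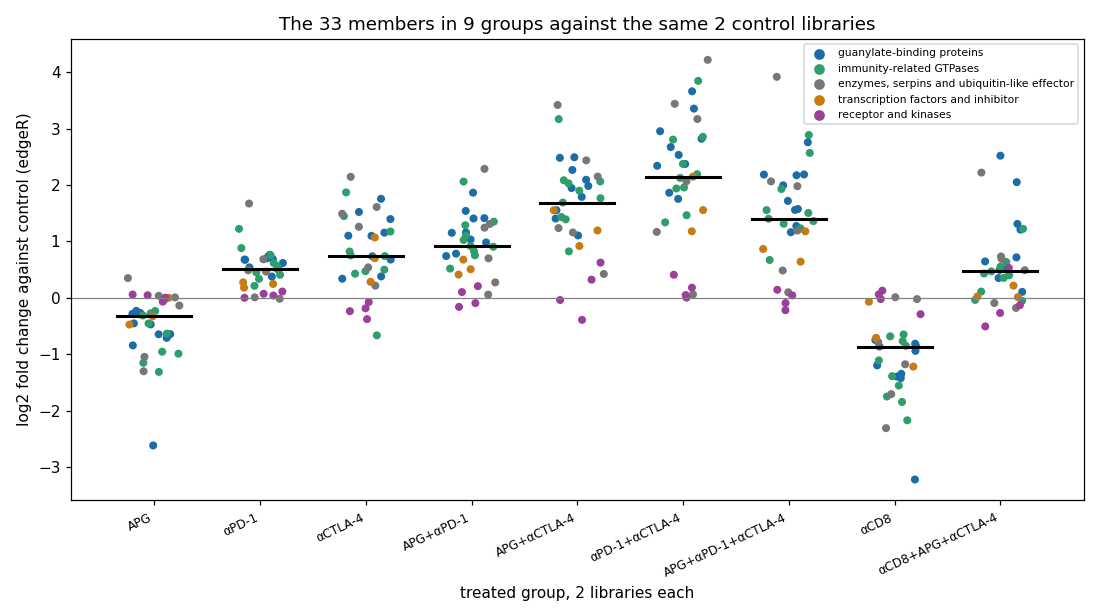
Log2 difference from control of each of the 33 members (points) in the 9 treated groups (columns), from the edgeR fit; the bar is the median. The points of the double antibody group and the combination lie highest, those of anti-CD8 lowest, and no point passed an adjusted p under 0.05.

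Averaging over the 8 undepleted groups gives each agent's effect on 8 libraries against 8. For anti-CTLA-4 the median difference of the members was 1.28, with all 20 GTPases positive, against 0.00 (to 2 decimals) for all genes. Upp1 rose by 0.81 (SE 0.125, edgeR adjusted p = 0.0269) and was the only member called, against a background of 0.158% (31 genes) higher and 0.092% (18 genes) lower. DESeq2 called 18 members higher (background 1.84%), and 28 passed an unadjusted p under 0.05 in edgeR (background 5.84%), among them all 20 GTPases. Ido1 differed by 2.35 (SE 0.602, edgeR adjusted p = 0.134), Igtp by 1.71 (SE 0.483), Gbp2 by 1.35 (SE 0.449), Socs1 by 0.98 (SE 0.230, edgeR adjusted p = 0.0965) and Irf1 by 0.69 (SE 0.247). The call was lost in most fits that left out 1 library. When libraries were left out in turn, edgeR called 0 members without any of 13 of them: both libraries of control, anti-PD-1, APG-157 + anti-PD-1, the combination and the double antibody group, and APG-157 B, anti-CTLA-4 A and library A of the 3-agent group. It also called 0 with the combination's libraries summed, but 10 without anti-CTLA-4 B and 2 without library B of the 3-agent group. Without anti-CTLA-4 A the median was 0.70. For anti-PD-1 the median was 0.81 (1.49 without anti-CTLA-4 A and 0.40 without library A of the 3-agent group), with 0 members called by edgeR or DESeq2 and 7 at an unadjusted p under 0.05 (background 5.69%), led by Gm12185 at 1.15 (SE 0.412) and F830016B08Rik at 1.09 (SE 0.396). For APG-157 the median was 0.00 (to 2 decimals, and 0.62 without anti-CTLA-4 A), 0 members were called by either tool and 0 had an unadjusted p under 0.05 in edgeR (background 2.18% higher and 5.19% lower).

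The combination was also set against anti-CTLA-4 alone and against the double antibody group. Compared with the former, the member median was 0.73 (3.45 without anti-CTLA-4 A and 0.00 without anti-CTLA-4 B) and edgeR called 0 members (background 0.00511%), with 4 higher at an unadjusted p under 0.05 (background 11.4%). DESeq2 called 3 members higher: F830016B08Rik (2.43 in edgeR, SE 0.825), Jak2 (0.81, SE 0.283) and Jak1 (0.56, SE 0.189), against 7.12% of genes. In 14 members both libraries of the combination lay above both of anti-CTLA-4 (background 28.6%). F830016B08Rik was 6.92 and 7.51 CPM in the combination against 2.34 and 0.338 CPM with anti-CTLA-4 alone. Compared with the double antibody group the member median was -0.52 (-0.83 without library A of the double antibody group and -0.23 without its B), with 0 members called by edgeR or DESeq2 and 1 lower at an unadjusted p under 0.05 (background 5.06%), Ifngr1 at -0.44 (SE 0.192). Of the members, 25 had both libraries of the combination below both of the double antibody group (background 32.5%). Tests of interaction called 0 members in edgeR or DESeq2, both for APG-157 with anti-CTLA-4 (median 1.03, 2 members higher at an unadjusted p under 0.05, background 4.98%) and for anti-PD-1 with anti-CTLA-4 (median 0.80, 0 at that p, background 1.49% higher and 1.48% lower). DESeq2 gave Ido1 no adjusted p in the first of these tests and in the comparison with the double antibody group. Without anti-CTLA-4 A the 2 interaction medians were 3.61 and 3.19, and without anti-CTLA-4 B 0.48 and 0.13.

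The depletion groups ask whether the members' levels under the combination depend on CD8 T cells. The labels do not name the experiment of each library, so depletion and experiment cannot be told apart. Cd8a was 11.9 and 11.9 CPM in the combination and 0.260 and 0.381 CPM with anti-CD8 added. Between these groups the member median was -1.18, against 0.09 for all genes. Upp1 fell by 1.34 on the log2 scale (SE 0.252, edgeR adjusted p = 0.0252) and Jak1 by 0.59 (SE 0.189, edgeR adjusted p = 0.0462). They were the 2 members called of 33, where 8.18% of all genes were called lower and 10.8% higher. DESeq2 called the same 2 lower (background 12%), and edgeR gave 4 members lower at an unadjusted p under 0.05 (background 17%). Leukocyte genes moved with them: Ptprc fell by 1.13 on the log2 scale (SE 0.364, edgeR adjusted p = 0.0467) and Cd68, the 1 macrophage gene of 6 called, by 1.00 (SE 0.277, edgeR adjusted p = 0.0327), while 0 of 7 T cell and 0 of 5 natural killer cell genes were called. The part of these cells was not tested. Jak1 was 223 and 227.6 CPM in the combination and 171.6 and 127.6 CPM with anti-CD8 added. The calls were lost without library B of the depleted combination, the library with adipocyte and squamous genes. They were also lost without either library of the undepleted combination. Gbp2 differed by -1.28 (SE 0.896), Igtp by -1.40 (SE 0.956) and Irf1 by -0.91 (SE 0.495), none of which passed. In 27 members both depleted libraries lay below both undepleted ones (background 31.1%).

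Within the depleted groups, the GTPases stood higher in both libraries that also received the combination. In a comparison added after seeing the data, the depleted combination against anti-CD8 gave a member median of 1.45, against 0.08 for all genes, with all 20 GTPases positive. In 27 members, all 20 GTPases among them, both libraries lay above both anti-CD8 libraries (background 26.8%). EdgeR called 0 members, with a background of 0% higher and 0.0102% lower (7 members were higher at an unadjusted p under 0.05, background 16%), and DESeq2 called 3 higher (7.94%), Gbp6, Gbp8 and Gbp11. Gbp8 was 1.33 and 1.06 CPM with anti-CD8 and 8.67 and 83.8 CPM with the 2 agents added, a difference of 5.28 (SE 1.86, edgeR adjusted p = 0.135). Gbp11 was 1.36 and 12.6 CPM in the same 2 libraries. Gbp8, Gbp11, Ido1 and Gbp4 were far higher in library B than in A, whereas Irf1 (157.5 and 136.3 CPM) and Ifi47 (123.3 and 103.2 CPM) were not. Without that library the member median was 1.11 and all 20 GTPases were still positive. The T cell genes summed to 28.9 and 32.9 CPM with the 2 agents and to 9.64 and 11.4 CPM with anti-CD8 alone, and the part of these cells in the difference was not tested. The interaction of anti-CD8 with the combination had a member median of -0.15 (-0.04 without library A of the depleted combination, -0.45 without its B and -0.25 without control B) and no member called by edgeR (background 0.0102% lower), with 2 lower at an unadjusted p under 0.05 (background 12.4%), Upp1 at -1.35 (SE 0.352, edgeR adjusted p = 0.101) and Jak1 at -0.72 (SE 0.266). DESeq2 called Upp1 lower there (background 5.35%).

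**Figure D5:**
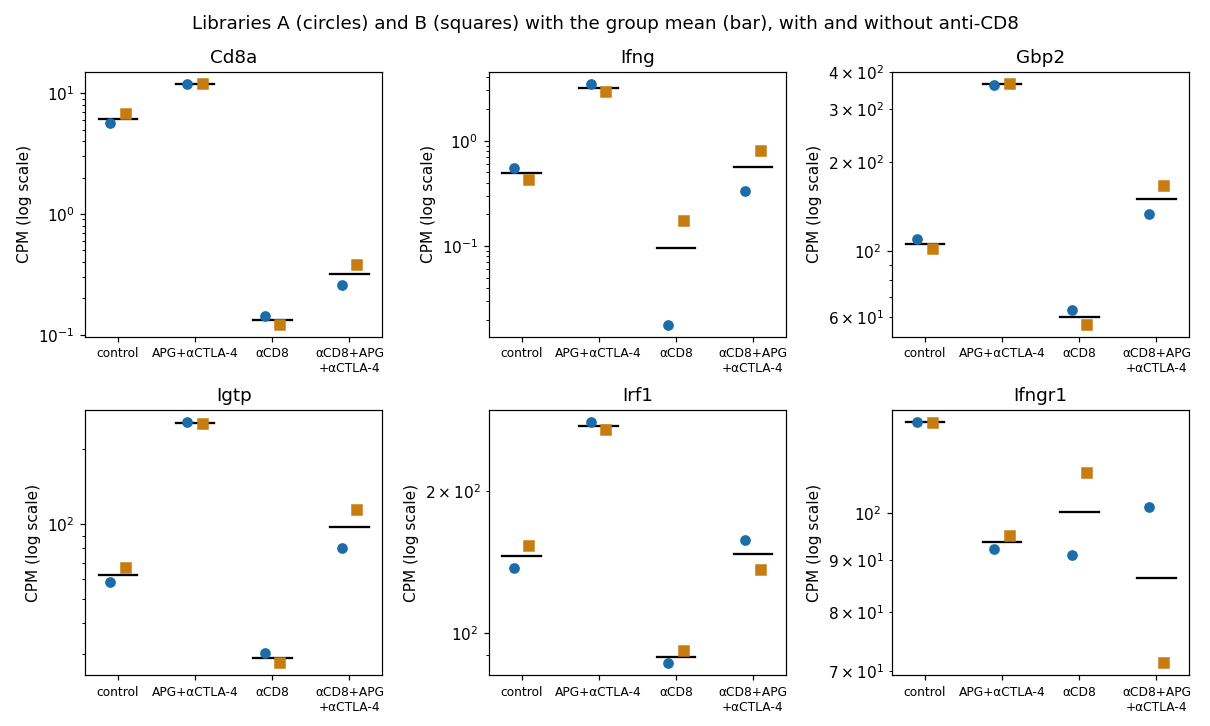
Levels (CPM, log axis) of Cd8a, Ifng, Gbp2, Igtp, Irf1 and Ifngr1 in control, the combination, anti-CD8 and the depleted combination, with 1 point for each library. Cd8a is lowest in both depleted groups, whereas Gbp2 and Igtp are at 133.4 and 165.7 and at 80.6 and 113.9 CPM in the depleted combination, between anti-CD8 alone and the undepleted combination.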

How the data were processed

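Bulk RNA-seq of 20 libraries (10 groups of 2) was analysed. The authors trimmed reads with Trimmomatic 0.39 and estimated transcript abundance with Salmon (1.5.0 in the submitters' processing notes, a different patch version in the methods) on GRCm39, summed to genes. The deposited values used here are expected counts without depth scaling, rounded to whole numbers. The authors' second table of log2 values was not used. Reads of near-identical paralogs are split by estimate.

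Samples were grouped by the labels. The members and lists were chosen with earlier results of these data known. In R 4.3.3, edgeR 4.0.16 kept 19567 of 54309 genes (filterByExpr, minimum count 10, minimum total 15), scaled by TMM, and fitted 1 quasi-likelihood model to all libraries (10 residual degrees of freedom, common biological coefficient of variation 38.7%), with p-values adjusted over all genes by Benjamini-Hochberg. Slopes used log2(CPM + 0.1) of Ifng or Cd8a, without or with group terms, on 19566 genes. Correlations used 100000 permutations. DESeq2 1.42.0, RLE factors, other low-count filters, summed paralogs and leaving out each library were alternatives. All members are accounted for. Values per library were given by rule for Ifng, Cd8a, the markers Ido1 and Gbp2, the first gene of each role and called members. Otherwise the highest and lowest member of each comparison, the 3 highest and lowest correlations and up to 3 genes of lowest p in each other list were named, and further names were chosen after their values were seen. Paralogs were paired by shared 31-base words (80% or more) in place of the protein identity planned. Upstream windows of 250 bases came from RefSeq GRCm38.p6. Methods were tested on simulated data. Library totals of 43.9 to 72.1 in units of 1000000 make 1 CPM worth as many counts before TMM scaling, whereas Ifng and Ido1 had as little as 1 count.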

Additional observations from a re-analysis of the deposited data

How the results depend on the processing

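Of the counts of members called under each alternative, 730 stayed within 1.5 times the count reported and 58 did not. The 730 include counts of 0 that stayed 0, and most group comparisons had a main count of 0. In comparisons with control, where the main counts were 0, DESeq2 called 1 member in the combination and 1 in the double antibody group, and edgeR fitted to only the 2 groups compared called 26 and 25 higher and, in anti-CD8, 5 lower. The same fit gave 1 in the combination against anti-CTLA-4, where DESeq2 gave 3 and leaving out library B of the depleted combination (added after seeing the data) 1, and 7 lower against the double antibody group. In the fits to 2 groups with the combination, part of the spread came from its 2 libraries, which hardly differed. The 2 members lower with anti-CD8 added to the combination became 1 with RLE factors, with no filter, with a mean of at least 1 CPM and with the threshold on fold, and 0 with library A and B of the combination summed or the 2 groups alone (0 to 2 without single libraries). The 1 member higher for anti-CTLA-4 became 0 with those libraries summed or the threshold on fold, 18 in DESeq2, and 0 to 10 without single libraries. Without library A of the depleted combination, 1 member was higher and 1 lower against control, 4 higher and 1 lower against anti-CD8 (DESeq2 3), and 2 lower in the interaction with anti-CD8 (DESeq2 1). The cause was not tested.

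Slope counts on Ifng over all 20 libraries stayed at 28 or 29. Correlation counts fell in smaller sets: Spearman's rho with Ifng passed for 1 member within B libraries, 19 over group means and 0 over within-group differences, and below and above the widest gap (added after seeing the data) 5 and 0 passed on r and 4 and 0 on rho. With Cd8a, r passed for 7 within A, 0 within B, 0 over means and 0 below the gap, and rho for 0 within B, 0 over means, 5 over differences and 0 below the gap. These sets hold 7 to 13 values. With 7 values a permutation p cannot get small, and 0 of all genes passed, so a count of 0 there decides nothing. The median r of the members was 0.831 with Ifng above its gap and 0.0542 with Cd8a below its gap. Among the single genes followed, Ifngr1 alone reversed, when single libraries or, for the slopes within groups, the pair of the 3-agent group were left out. Its log2 difference ranged from -0.0709 to 0.203 in the double antibody group and from -0.421 to 0.117 for anti-CD8 added to the combination, its slope on Ifng from -0.00263 to 0.0319 (-0.00148 without library A of the double antibody group), and its slopes within groups from -0.0123 to 0.0282 on Ifng and from -0.00674 to 0.0299 on Cd8a.

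The letters A and B were not used as a block in the main fits. The deviations correlated from -0.38 to 0.71 over 45 pairs of groups (median 0.016, 13 over 0.1). These values do not exclude a batch shared by libraries of the same letter. The replicate block left all 46 counts within 1.5 times and ended 1 of 48 single-gene results, the slope of Upp1 on Ifng within groups (0.149, edgeR adjusted p = 0.0608). Depth limited Ifng and Ido1 most, at 1 count in anti-CD8 A, and its part was not separated from the spread between the 2 libraries of a group.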
